A study of Cricetulus griseus with 4 samples.

Results

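Steroid hormones act through nuclear receptors, transcription factors that bind a ligand and then particular DNA elements, and that recruit coactivators or corepressors to the genes they control. The hormones themselves are made from cholesterol by cytochrome P450 enzymes, of which some work on the way to cholesterol and others turn it into the finished steroid. Of the 347 genes named on the array, 5 that belong to this system were examined: the receptors ESR1 and NR2F1, the receptor coactivator SRA1, and the P450 enzymes CYP51A1 and CYP11B1. They are measured by 6 of the 1152 probes, because ESR1 is on 2 probes. A further 794 probes are unnamed here, and 350 have 1 gene symbol.

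Each of 4 arrays compared total RNA of the chromosomally stable Chinese hamster clone RT210B, in channel 1, with RNA of 2 chromosomally unstable clones pooled in equal amounts, in channel 2. The pool called mixture 1 held LS12 and 1 further unstable clone, and mixture 2 held Fe10-3 and 1 further unstable clone. Each mixture was measured on 2 arrays, numbered replicate 1 and replicate 2. RT210B was in channel 1 on all 4 arrays, so an effect of the channel cannot be told apart from a difference between the clones. The series title calls the clones isogenic and asks whether stable and unstable ones differ in expression. No treatment, dose or culture condition is given in the sources used here. The stable group is 1 clone, an unstable clone cannot be told from its partner in the pool, and nothing says that replicates came from separate cultures, so p-values cover the spread between arrays alone, and that spread may be technical. Both mixtures were set against the same RT210B, so their values are not independent of each other.

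Values are log2 ratios between the channels, averaged over the 2 spots of a probe and centred on the median probe of the array, here called the middle probe. The deposited medians over probes were -0.12 and -0.22 for replicates 1 and 2 of mixture 1, and -0.44 and -0.53 for those of mixture 2. The sources do not settle which pool is the numerator, so positive and negative are the signs of the deposited values and say nothing of which pool held more of a transcript. The arrays differed in spread, the SD over probes falling from 1.14 and 1.05 (mixture 1) to 0.80 and 0.47 (mixture 2). No spot brightness was used here, and having 2 arrays a mixture limits the precision. The probes carry human gene names while the RNA is hamster. The symbols ESR1, NR2F1 and SRA1 were also found in the RefSeq table of the hamster assembly CriGri-PICRH-1.0, and CYP51A1 and CYP11B1 were not matched there by symbol. Of 26 marker genes of fibroblasts, epithelium, ovary and steroid-making cells, 0 were on a probe with 1 symbol, so the cell type of the clones was not checked.

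The genes were chosen by function with the log2 ratios of all 4 arrays already known. NR2F1 and CYP11B1 had been singled out for their values in mixture 1, SRA1 for its mean over both mixtures, and CYP51A1 for the difference between the mixtures. Those values, and others that share their arrays, are therefore a description, and counts of probes past a threshold are not evidence for the genes. ESR1 had not been singled out in any comparison.

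In mixture 1 the coactivator SRA1 lay on the positive side, and NR2F1, CYP51A1 and CYP11B1 lay on the negative side, each at least 2-fold from the middle probe on both arrays. Of all probes 23.6% were at least 2-fold with 1 sign on both. Both ESR1 probes lay less than 2-fold from the middle probe, on opposite sides. In mixture 2 the means of SRA1, NR2F1 and CYP11B1 lay closer to the middle, and CYP51A1 lay on the other side of it. SRA1 was the 1 member probe with the same sign on all 4 arrays, as had 45.7% of all probes.

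**Figure D1:**
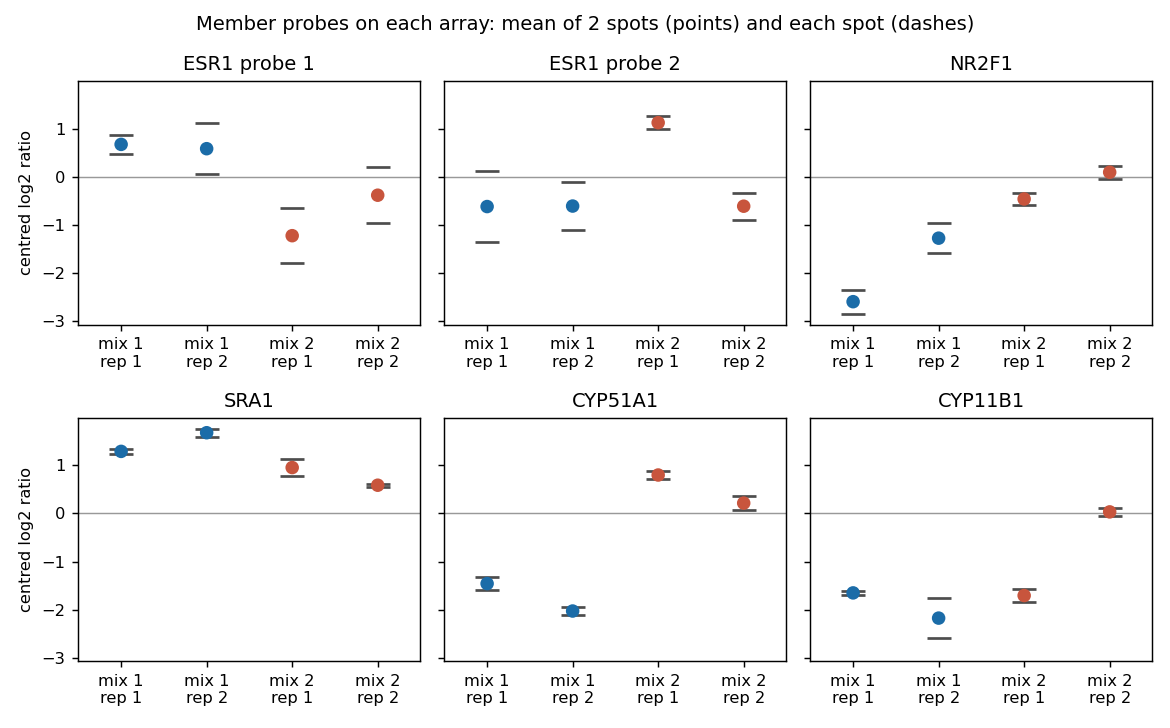
Centred log2 ratio (vertical axis) of the 6 member probes on the 4 arrays (horizontal axis). Points are the mean of 2 spots (blue, mixture 1; red, mixture 2) and dashes the single spots, and the 4 points of SRA1 lie above 0 while those of CYP51A1 lie below 0 in mixture 1 and above it in mixture 2.

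ESR1 encodes estrogen receptor alpha, the ligand-activated factor through which estradiol regulates growth and differentiation in breast, uterus and ovary. The first ESR1 probe had centred log2 ratios of 0.67 and 0.58 on replicates 1 and 2 of mixture 1, and of -1.23 and -0.38 on those of mixture 2. It was thus positive on both arrays of one mixture and negative on both of the other, and the groups did not overlap. Of all probes 11.5% had the mixtures on opposite sides on every array, and for 62.2% they did not overlap. The second ESR1 probe had -0.62 and -0.61 in mixture 1, and 1.12 and -0.61 in mixture 2. It was negative on 3 of the 4 arrays, and its groups overlapped.

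The ESR1 probes therefore disagreed. The first minus the second was 1.29 and 1.19 in mixture 1, and -2.35 and 0.23 in mixture 2. They lay on opposite sides of the middle probe on every array but replicate 2 of mixture 2. The array held 3 genes on 2 probes each, and the gap between probes was smaller for the others: 0.07 to 0.78 for the gap junction gene GJA1 and 0.17 to 0.93 for the ubiquitin-conjugating enzyme gene UBE2R2. On 3 of the 4 arrays the ESR1 gap was wider than the widest gap of either gene.

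**Figure D2:**
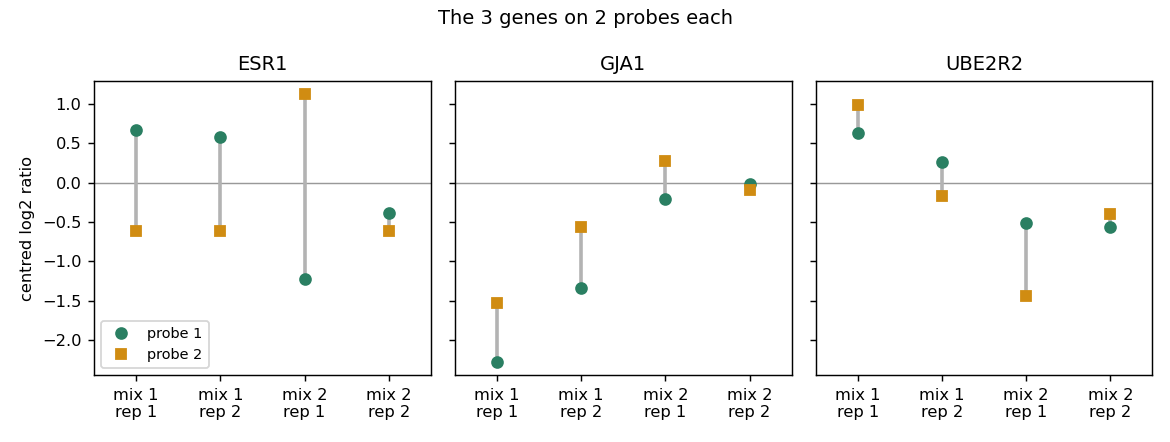
Centred log2 ratio (vertical axis) of the probes of ESR1, GJA1 and UBE2R2 on each array (horizontal axis), with a grey line joining the probes of a gene (circles, probe 1; squares, probe 2). The ESR1 lines cross 0 on 3 arrays and reach 2.35 on replicate 1 of mixture 2.

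The spots of the ESR1 probes were also far apart. Spots of the first probe differed by 0.38, 1.07, 1.15 and 1.16 (log2) on mixture 1 replicates 1 and 2 and mixture 2 replicates 1 and 2, and those of the second by 1.47, 1.00, 0.28 and 0.56. Averaged over arrays these differences were 0.94 and 0.83, against a median of 0.37 over all probes, and 91.1% and 86.7% of probes had closer spots. On replicate 1 of mixture 1 the spots of the second probe lay at 0.12 and -1.35, on both sides of the middle, as did those of the first on replicate 2 of mixture 2 (-0.97 and 0.20). The part of this spread in the disagreement was not tested.

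Neither ESR1 probe passed a Benjamini-Hochberg adjusted p of 0.05 in any comparison, in a limma fit over all 1152 probes with 1 mean for each mixture. In mixture 1 the probes had means of 0.63 (SE 0.317, limma adjusted p 0.137) and -0.61 (SE 0.408, adjusted p 0.244). The fit gives a probe 1 spread shared by both mixtures, so an SE does not show the gap within 1 mixture. The arrays of the second probe differed by 0.01 in mixture 1 and by 1.74 in mixture 2. From the first or the second spot alone, the first probe's mean in mixture 1 was 0.24 or 0.95, and the second probe's -0.02 or -1.27. In mixture 2 they had -0.80 (adjusted p 0.249) and 0.26 (adjusted p 0.735). The difference between the mixtures was 1.43 (SE 0.448, limma adjusted p 0.117) for the first probe and -0.87 (SE 0.577, adjusted p 0.348) for the second. The first probe passed in mixture 2 with no centring (-1.29) and with the arrays scaled to 1 spread (-1.02). It also passed in the difference without replicate 2 of mixture 1 (1.48), a fit that leaves 1 array in that mixture, assumed to vary like those of the other. No direction for ESR1 follows from probes of opposite sign.

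NR2F1 encodes COUP-TF1, an orphan nuclear receptor with no established natural ligand that acts mostly as a repressor and is known for its part in neural development. Its centred log2 ratio was -2.60 and -1.28 on replicates 1 and 2 of mixture 1, and -0.46 and 0.09 on those of mixture 2. Both arrays of mixture 1 lay below both of mixture 2, with no overlap, which also held for 62.2% of all probes in either direction. On replicate 1 of mixture 1 this was 6.05-fold from the middle probe, and 21 of the 1152 probes lay further out on the negative side. Replicate 2 was less extreme, with 109 probes further out.

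The 1.32 between the replicates of mixture 1 was wide for the array: 87.1% of probes had a smaller gap, and the median gap was 0.50. The mean of mixture 1 was -1.94 (SE 0.373), and without replicate 1 it was -1.28. In mixture 2 the mean was -0.18 (SE 0.373, limma adjusted p 0.791), the sign of which rests on replicate 1: without that array NR2F1 lay at 0.09. The difference between the mixtures was -1.75 (SE 0.527), or -1.09 without replicate 1 and -2.41 without replicate 2 of mixture 1. The mean of both mixtures was -1.06 (SE 0.263). It no longer passed once the trend of the ratio on the agreement of duplicate spots, described below, had been removed (-0.93).

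By distance over the 4 centred log2 ratios, the named probe nearest to NR2F1 was a GJA1 probe (0.43), followed by the sulfate transporter SLC26A2 (0.62) and the zinc finger gene ZXDC (0.69). The median distance of NR2F1 to the other named probes was 3.16. All 3 neighbours were strongly negative on replicate 1 of mixture 1 (GJA1 at -2.28 and SLC26A2 at -2.62), less so on replicate 2 (-1.34 and -1.55), and within 0.44 of the middle on both arrays of mixture 2.

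SRA1, the steroid receptor RNA activator, gives rise to an RNA that is a coactivator of steroid receptors and also to a protein. Its centred log2 ratio was 1.29 and 1.68 on replicates 1 and 2 of mixture 1, and 0.95 and 0.59 on those of mixture 2. Of all probes 45.7% kept 1 sign on all 4 arrays, and for 62.2% the mixtures did not overlap. The 4 values of SRA1 were all positive, and both arrays of mixture 1 lay above both of mixture 2. Its place among the probes was similar throughout: 91.1%, 94.8%, 92.6% and 95.2% of probes lay below it on the 4 arrays in that order. With the arrays scaled to 1 spread, SRA1 lay at 0.98, 1.38, 1.03 and 1.08, and the mixtures then overlapped.

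The mean of SRA1 was 1.48 (SE 0.297), or 2.80-fold, in mixture 1, 0.77 (SE 0.297) in mixture 2 and 1.13 (SE 0.210), or 2.18-fold, over both. The mixtures differed by 0.71 (SE 0.419), and by 0.12 with the arrays scaled. Its spots differed by 0.10, 0.16, 0.36 and 0.06, closer than the median probe on 3 arrays and about at the median (0.33) on replicate 1 of mixture 2. On these arrays the ratio moved with the agreement of spots. Among the 25% of probes with the closest spots 65.3% to 77.1% were positive on an array, against 16.0% to 38.9% of the 25% with the widest. With the trend removed, SRA1 lay at 1.03 in mixture 1 and 0.84 over both and passed in neither. Among the 389 probes with close spots (within 0.5 of each other on every array), centred again on those probes, it lay at 0.66 in mixture 1 and 0.49 over both. What part the agreement of spots has in the value was not tested further.

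**Figure D3:**
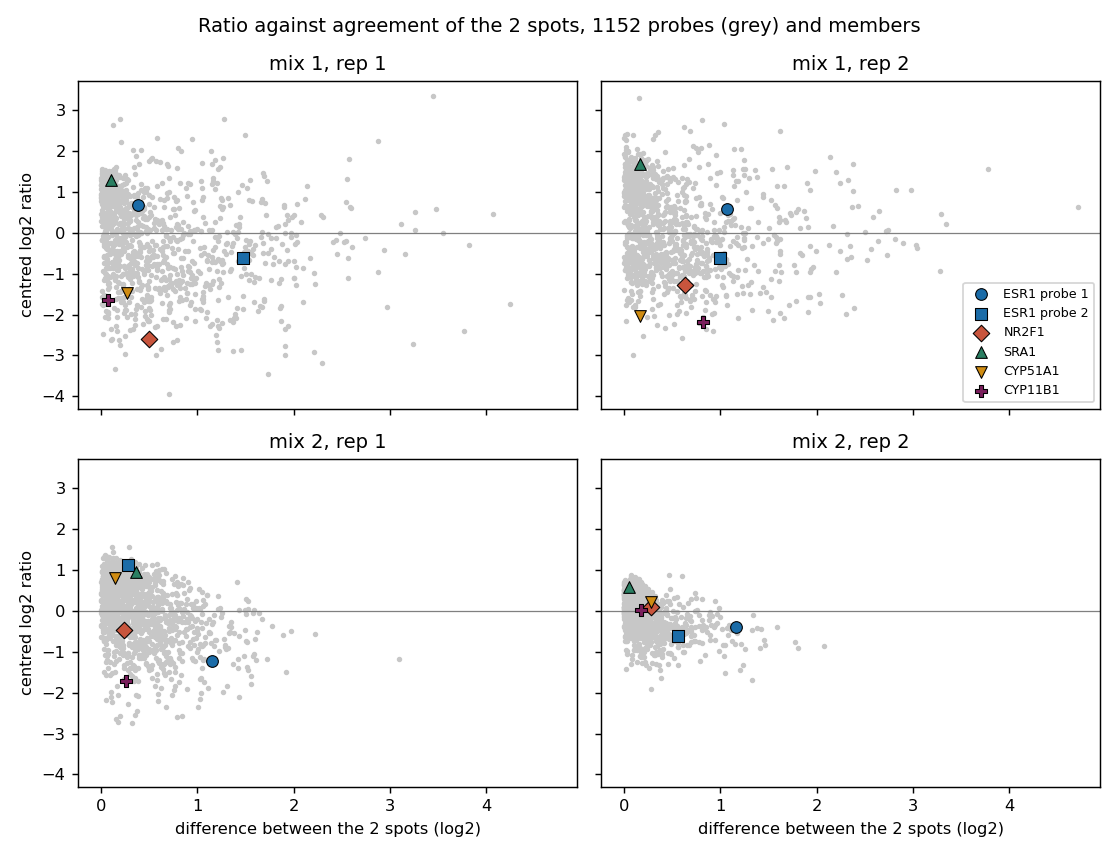
Centred log2 ratio (vertical axis) against the difference between the 2 spots of a probe (horizontal axis, log2), 1 panel per array, for all 1152 probes (grey) and the members (coloured symbols). SRA1 sits above 0 in every panel, with spots closer than the array's median except on replicate 1 of mixture 2 (0.36). The ESR1 probes sit to the right of most probes, except the first on replicate 1 of mixture 1 (0.38) and the second on replicate 1 of mixture 2 (0.28).

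SRA1 lay in the most crowded pattern of the members. Within a distance of 0.5 over the 4 arrays it had 71 other probes, 25 of them named, against a median of 11 over all probes and 0 to 4 for the other member probes. The nearest named ones were the HLH inhibitor ID4, the growth factor GDF10 and the DNase-like gene DNASE1L1, at distances of 0.214, 0.215 and 0.218. ID4 lay at 1.12, 1.63, 0.85 and 0.53 on the 4 arrays, and like SRA1 all 3 were highest on replicate 2 of mixture 1 and lowest on replicate 2 of mixture 2.

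CYP51A1 is the lanosterol demethylase, a P450 enzyme of the last stretch of cholesterol synthesis that most cell types use. Its centred log2 ratio was -1.46 and -2.03 on replicates 1 and 2 of mixture 1, and 0.80 and 0.22 on those of mixture 2. The mixtures lay on opposite sides of the middle probe, as for 11.5% of all probes, and here with a wide gap between them. On replicate 2 of mixture 1 this was 4.08-fold from the middle, with 18 probes further out on the negative side. In mixture 2 the probe was less exceptional, above 86.5% and 67.8% of probes.

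The means of CYP51A1 were -1.74 (SE 0.315) in mixture 1 and 0.51 (SE 0.315) in mixture 2. The difference of -2.25 (SE 0.445) ranked 23rd in size of 1152 probes. It did not pass over all 4 arrays. CYP51A1 had been chosen for this difference, so its passes without centring (-1.94) and with the replicate block (-2.25) are not evidence. With 1 array left out, which leaves 1 array in a mixture, the difference ranged from -2.54 to -1.96. The spots of the probe differed by 0.15 to 0.28 and lay on the same side of the middle on all 4 arrays. On replicate 2 of mixture 2 the 0.28 was wider than the difference of 74.8% of probes. Averaged over both mixtures the opposite signs gave -0.62 (SE 0.222), which did not pass. It did pass without centring (-0.95), as did 48.4% of all probes, and among probes with close spots (-1.26), as did 29.3% of those. Without replicate 1 of mixture 1, CYP51A1 lay at -0.76 over both. Without centring its value on replicate 2 of mixture 2 turned to -0.32, while replicate 1 stayed at 0.36, the mean of mixture 2 was 0.02 and the difference -1.94.

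Few probes shared this pattern: 0 lay within a distance of 0.5. The nearest named ones were the apoptosis gene BID (0.84), the Hedgehog receptor gene PTCH1 (0.91) and the cullin regulator CAND2 (1.03). Each was negative on both arrays of mixture 1 and positive on replicate 1 of mixture 2, but slightly negative on replicate 2 (-0.19, -0.37 and -0.02), where CYP51A1 was positive.

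CYP11B1 is the mitochondrial steroid hydroxylase that completes cortisol synthesis and is known from the adrenal cortex. Its centred log2 ratio was -1.65 and -2.18 on replicates 1 and 2 of mixture 1, and -1.71 and 0.03 on those of mixture 2. It was strongly negative on 3 of the 4 arrays and at the middle on replicate 2 of mixture 2. The mixtures overlapped, since replicate 1 of mixture 2 lay between the arrays of mixture 1. On replicate 2 of mixture 1 only 9 probes lay further out on the negative side.

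The gap of 1.74 between the replicates of mixture 2 was wider than that of 98.4% of probes, whose median was 0.40. The mean of CYP11B1 was -1.91 (SE 0.418) in mixture 1 and -0.84 (SE 0.418, limma adjusted p 0.289) in mixture 2. Without replicate 1 of mixture 2 the latter was 0.03 and without replicate 2 it was -1.71, so the value is set by which array is kept. With no centring it was -1.32 and passed, as did 17.9% of all probes, all of them negative. The mean of both mixtures was -1.38 (SE 0.296), or 2.60-fold, and the difference between them -1.08 (SE 0.591), which was -0.21 without replicate 2 and -1.95 without replicate 1 of mixture 2.

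The named probe closest to CYP11B1 was the zinc finger gene IKZF5 at a distance of 0.47, with centred log2 ratios of -1.60, -1.90, -1.33 and 0.00. It shared the value at the middle on replicate 2 of mixture 2. The next were RPA3, part of the RPA complex that coats single-stranded DNA (1.01), and the leukemia fusion partner gene MLLT3 (1.02).

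**Figure D4:**
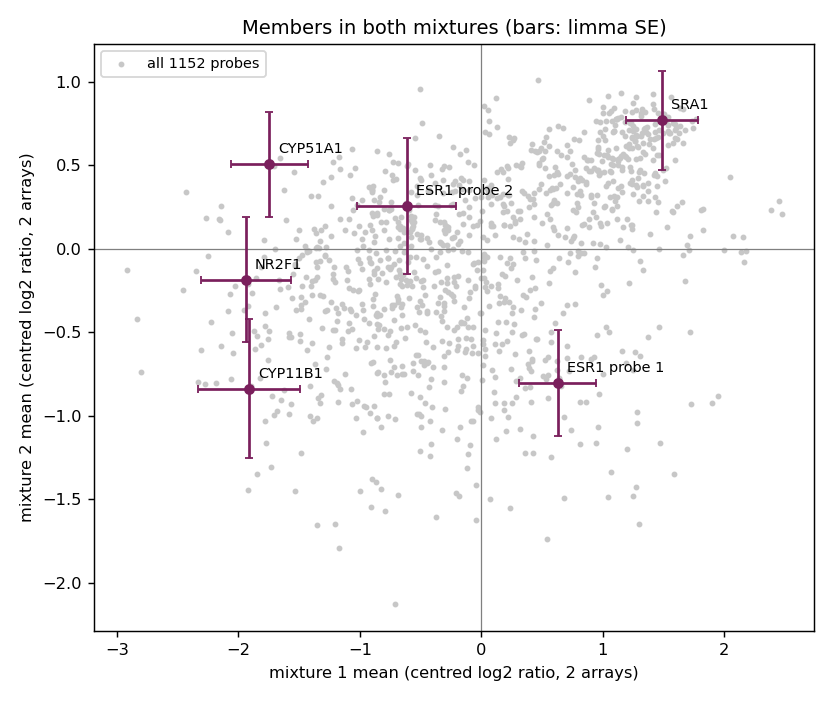
Mean centred log2 ratio in mixture 1 (horizontal axis) and mixture 2 (vertical axis), each over 2 arrays, for all 1152 probes (grey) and the members with limma standard errors (bars). CYP51A1 and the ESR1 probes lie in the quadrants of opposite sign, and SRA1 lies at 1.48 and 0.77 within a dense group of probes.

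Counted over the members, 4 of the 6 probes passed in mixture 1 (SRA1, NR2F1, CYP51A1 and CYP11B1), where 43.1% of all probes passed. The same 4 were at least 2-fold with 1 sign on both arrays, as were 23.6% of all probes. In mixture 2, 0 of 6 passed, and 0% of all probes did. An unadjusted p under 0.05 in limma was reached there by 2 member probes (SRA1 and the first ESR1 probe) and by 226 of 1152 probes. None of the 6 was at least 2-fold on both arrays of mixture 2, against 1.91% of all probes.

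In the mean of both mixtures 3 of 6 passed (SRA1, NR2F1 and CYP11B1), against 38.7% of all, and 0 were at least 2-fold on all 4 arrays, against 0.521%. A single sign on all 4 arrays was seen for 1 of 6 member probes and for 45.7% of all probes. In the difference between the mixtures 0 of 6 passed, as did 0% of all, while 3 had an unadjusted p under 0.05 in limma (the first ESR1 probe, NR2F1 and CYP51A1), as had 275 of all probes. The arrays of the mixtures did not overlap for 4 of 6 (SRA1, the first ESR1 probe, NR2F1 and CYP51A1), against 62.2% of all, and they lay on opposite sides of the middle on every array for 2 of 6 (the first ESR1 probe and CYP51A1), against 11.5%. The rule used all of these arrays, so nothing is read from these counts.

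Among themselves the members did not move as 1 group. NR2F1 and CYP11B1 were the closest pair (distance 1.80), followed by NR2F1 and CYP51A1 (1.86), and SRA1 and CYP11B1 were the furthest apart (5.56). The ESR1 probes were 2.94 from each other, further than the second probe was from CYP51A1 (1.87).

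The other measured genes of the same system were taken from 5 lists. Of 48 nuclear receptors 4 were measured, on 5 probes: ESR1, NR2F1, ESR2 and NR0B2. ESR2, which encodes estrogen receptor beta, had centred log2 ratios of 1.34, 1.54, 0.89 and 0.44 on the 4 arrays, all positive. Its mean was 1.44 (SE 0.294, limma adjusted p 0.00902) in mixture 1, 0.66 (adjusted p 0.254) in mixture 2 and 1.05 (SE 0.208, adjusted p 0.00999) over both.

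ESR2 was thus past the threshold in mixture 1 and over both mixtures, as were 24.4% and 21.7% of all probes on the positive side. Its paralog ESR1 was not, but a difference between the 2 genes was not tested. The receptor list was drawn up with earlier results known, so nothing is read from these passes. ESR2 lay 0.22 from SRA1 over the 4 arrays, and its spots were close (mean difference 0.11). With the trend on spot agreement removed it did not pass (0.91 in mixture 1, adjusted p 0.0712, against 0.00237 to 0.0408 in its other alternatives). NR0B2, the corepressor SHP that lacks a DNA-binding domain, lay at -0.77, 0.85, 0.07 and -0.47, with no steady sign and wide spots (mean difference 0.78). Over the 5 receptor probes the median was 0.04 in mixture 1 and -0.09 over both mixtures, against -0.03 and -0.10 for all probes, with 1 probe past the threshold on each side in both comparisons.

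Of 44 receptor coregulators and chaperones 6 were measured, and 4 passed on the positive side in mixture 1 and again over both mixtures: SRA1, NRIP1, DDX17 and HSP90AA1. Of all probes 24.4% and 21.7% passed on that side. SRA1 had been chosen for its mean over both mixtures, and the list was drawn up with earlier results known. Nothing is therefore read from this count. The list's median was 1.10 in mixture 1 and 0.90 over both mixtures. NRIP1, the corepressor RIP140 that binds liganded estrogen receptors, lay at 1.22, 1.26, 1.10 and 0.54 (mean of both 1.03, SE 0.211, limma adjusted p 0.0106). DDX17, an RNA helicase that serves as a coactivator of ESR1 and binds SRA RNA, lay at 0.90, 1.03, 0.75 and 0.39 (mean of both 0.77, SE 0.205, limma adjusted p 0.0192). Both were positive on all 4 arrays, as were SRA1 and ESR2, and 45.7% of all probes kept 1 sign on all 4. NRIP1 and DDX17 lay 0.45 and 0.81 from SRA1, which had 71 other probes within 0.5.

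NRIP1 and DDX17 had spots closer than all but 8.68% and 6.42% of probes. With the trend on spot agreement removed neither passed over both mixtures (0.63 and 0.35), and DDX17 did not without centring (0.44). Without replicate 1 of mixture 2 neither passed over both (0.89 and 0.68), and among probes with close spots alone ESR2 (0.41), NRIP1 (0.39) and DDX17 (0.13) did not. In mixture 1 itself NRIP1 (1.24, limma adjusted p 0.0125) no longer passed among probes with close spots (0.41) or with the trend removed (0.69). DDX17 (0.97, limma adjusted p 0.0269) no longer passed in mixture 1 under either of these (0.14 and 0.37), nor without centring (0.80), with scaled arrays (0.77), with the first spot only (0.91), or without replicate 1 (1.03) or replicate 2 (0.90) of mixture 1. HSP90AA1, the chaperone that holds unliganded steroid receptors, lay at 2.22, 2.68, -0.27 and 0.84. Its mean was 2.45 in mixture 1 but 0.29 in mixture 2 (limma adjusted p 0.639). The mean over both mixtures stayed past the threshold with the trend removed (1.40), but HSP90AA1 was not among the probes with close spots. BRCA1, a repair protein that also inhibits the activity of the estrogen receptor alpha protein, lay at -0.40, -0.83, 0.69 and 0.30. The adaptor TRIP10 lay at -0.69, 0.01, 0.40 and -0.08. Neither passed in any comparison (limma adjusted p 0.126 to 0.837).

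**Figure D5:**
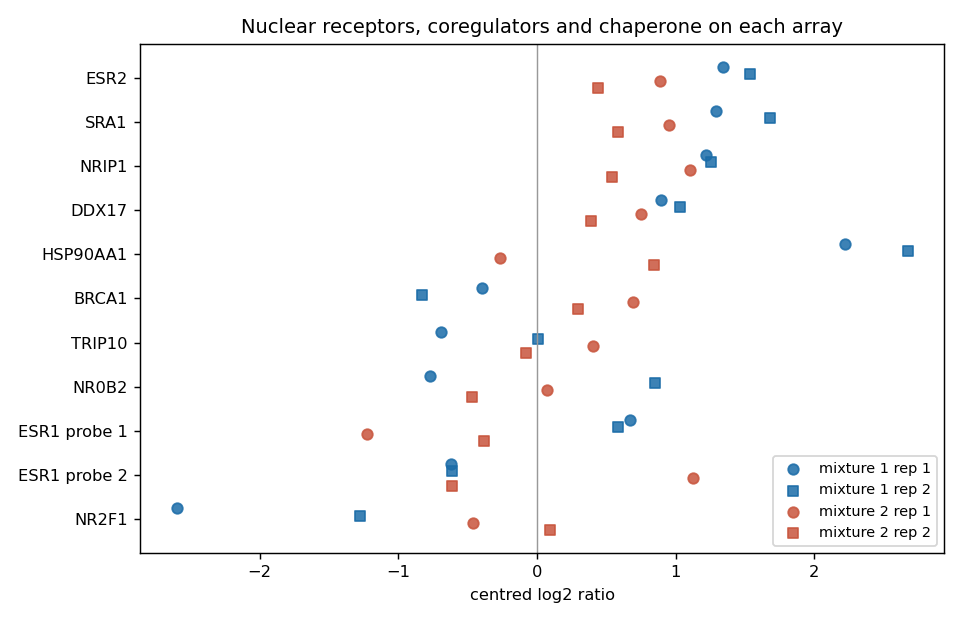
Centred log2 ratio (horizontal axis) of the measured nuclear receptors, coregulators and chaperone (vertical axis) on each array (blue, mixture 1; red, mixture 2; circles, replicate 1; squares, replicate 2). ESR2, SRA1, NRIP1 and DDX17 are positive on all 4 arrays, between 0.39 and 1.68, and the ESR1 probes are not. Of all probes 45.7% have 1 sign on all 4 arrays.

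Steroid synthesis itself was sampled thinly. Of 39 genes of steroid hormone synthesis and metabolism CYP11B1 alone was measured, and of 35 genes of cholesterol synthesis and sterol uptake CYP51A1 alone. Of the 24 estrogen-responsive genes listed, 0 were on a probe with 1 symbol. The list is short: EBAG9 and SLC39A6, also known to respond to estrogen and picked out after their values were seen, were on the array. Neither passed over both mixtures (0.41 with limma adjusted p 0.218, and 0.38 with adjusted p 0.164).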

How the data were processed

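The authors deposited a log2 ratio of the 2 channels for each of 2304 spots per array, with 0 missing. What the authors did before deposit is not given in the sources used here, except that the labels name normalization factors of 3.8 (mixture 1 replicate 2) and 1.169 (mixture 2 replicate 1). Adjacent spots were averaged to 1152 probes, since the annotation of GEO's platform table was the same for both spots of every pair (spots of a pair correlated at 0.725 to 0.819 across probes). Each array was centred on its median. The log2 ratios were fitted with limma 3.58.1 in R 4.3.3 (lmFit, eBayes, 1 mean per mixture, 2 residual and 6.69 prior degrees of freedom), with Benjamini-Hochberg adjustment over all probes at 0.05. The script was tested on simulated data whose changes were larger than the members' means, so that test does not bear on calls at their size. Alternatives changed the centring, array spread, spots used, prior, arrays and replicate block. The removal of the trend on spot difference (lowess) was chosen after seeing the data. The member genes and the gene lists were chosen with earlier results of these data known. Genes named were the members, the measured genes of the 5 lists, and for each member probe the 3 nearest probes with 1 symbol by Euclidean distance. No probe sequence was used here.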

Additional observations from a re-analysis of the deposited data

Results flagged for a closer look

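CYP51A1 and the first ESR1 probe lay on 1 side of the middle probe on both arrays of mixture 1 and on the other side on both arrays of mixture 2. The same was seen for 11.5% of all probes. With no centring CYP51A1 lay at -0.32 on replicate 2 of mixture 2, and its mean in that mixture was 0.02. For CYP51A1 mixture 1 minus mixture 2 was -2.25 (log2), with -1.46 and -2.03 in mixture 1 against 0.80 and 0.22 in mixture 2. For the first ESR1 probe it was 1.43, with 0.67 and 0.58 against -1.23 and -0.38, while the second ESR1 probe did not show this. Neither difference passed in limma over all 4 arrays with adjustment over all probes. CYP51A1 had been chosen for its difference, so its passes without centring (-1.94) and with the replicate block (-2.25) are not evidence. With 1 array left out the difference ranged from -2.54 to -1.96 for CYP51A1 and from 1.01 to 1.85 for the first ESR1 probe.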

How the results depend on the processing

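Of 284 values of single member probes under an alternative, 257 kept their sign and their side of the threshold, 14 newly passed, 3 no longer passed and 10 turned sign. The estimate could not change with the replicate block, the other prior or a mixture's own arrays alone, so its sign was fixed there. Leaving out an array of 1 mixture gives the other mixture the fit on its own arrays again. The 257 thus holds fixed and repeated values and does not measure stability. None of those that turned sign had passed. In mixture 2 the second ESR1 probe turned to -0.23 with no centring. With single arrays left out, mixture 2 values ranged from -0.61 to 1.12 for the second ESR1 probe, from -0.46 to 0.094 for NR2F1 and from -1.71 to 0.032 for CYP11B1. In the mean of both mixtures the first ESR1 probe turned to 0.32 with the second spot only and 0.29 with the trend on spot difference removed, and ranged from -0.30 to 0.12 with arrays left out. The second probe turned to 0.024 with the first spot only and 0.049 with the trend removed, and ranged from -0.61 to 0.25.

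The count of member probes past the threshold in mixture 1 stayed at 4 or 3, except that 2 of the 2 fitted passed over close duplicate spots. In mixture 2 it moved from 0 to 2 with no centring (the first ESR1 probe and CYP11B1), where 17.9% of all probes passed, all negative. It moved to 2 with the arrays scaled to 1 spread (SRA1 and the first ESR1 probe), where 17.6% of all passed. In the mean of both it fell to 1 (CYP11B1) with the trend removed (10.7% of all). In the difference it rose to 1 (CYP51A1) with no centring (4.08% of all). With the replicate block 1 (CYP51A1) passed in the difference and no other member's call changed. The arrays share only a number: same-numbered arrays' deviations correlated at -0.098. Counted by size at 1.5-fold, 5 of 6 member probes were past it in mixture 1 (46% of all probes), 1 (SRA1) in mixture 2 (13.3% of all) and 1 (SRA1) on all 4 arrays (6.16% of all). At 2-fold with scaled arrays 1 (SRA1) was in mixture 2 (8.07% of all). In mixture 1 the count at 2-fold fell from 4 to 3 with scaled arrays (10.3% of all) and with the trend removed (14.3%), where SRA1 dropped out. It also fell to 3 with the first spot only (23.9%), where NR2F1 dropped out, and rose to 5 with the second spot only (24.2%). The causes were not tested.

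Over all probes, 497 passed in mixture 1 but 291 with scaled arrays and 220 with the trend removed. In the mean, 446 became 123 with the trend removed and 219 without replicate 1 of mixture 2. In mixture 2, 0 became 206 with no centring, 203 with scaled arrays, 113 on its own arrays and 33 without its replicate 2. In the difference 0 became 47 with no centring, 36 with the replicate block and 67 to 213 with an array left out, except 0 without replicate 1 of mixture 2. Of the probes that passed, 281 of 497 in mixture 1 and 250 of 446 in the mean were on the positive side, against 232 of 524 and 124 of 558 with no centring, and 75 of 220 and 38 of 123 with the trend removed. Having 2 arrays per mixture limits the precision of every value.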
